A study of Macaca fascicularis with 3 samples.

Results

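Capillary endothelial cells of the extraocular muscle (EOM), the tissue of the muscles that move the eye, were described in 1 library of dissociated whole cells from the cynomolgus macaque, Macaca fascicularis. The members were 278 of the 7316 cell barcodes kept in that library, or 3.80% (exact binomial interval 3.37 to 4.26). The library held 8979 barcodes and the whole series 37973. A barcode was a member when at most 20% of its UMIs (unique molecular identifiers, tags that let each captured RNA molecule be counted once) came from mitochondrial genes, and when it carried at least 3 UMIs in all of C1QTNF9, RAMP3, CD300LG, GPIHBP1, APLNR and TM4SF18. This sum also had to exceed the sum of ACKR1, SELE, SELP, PLVAP and VCAM1, genes of postcapillary venules and of inflamed endothelium. Barcodes in which the second sum was at least 3 and the larger numbered 571 and served as the venular set, and all 7038 kept barcodes outside the capillary set, the venular set included, served as the remaining cells. The other libraries held nuclei of EOM and nuclei of quadriceps femoris (QFM), a limb muscle, 1 library each. The labels give no age, treatment or number of animals, and no sorting or enrichment of endothelial cells.

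Capillaries are the smallest vessels and the place where oxygen, glucose and fatty acids pass from blood to muscle. Their endothelial cells take up fatty acids through CD36 and the binding proteins FABP4 and FABP5, and GPIHBP1 holds lipoprotein lipase on their luminal face. Venules, downstream, are where leukocytes leave the blood, using selectins and ICAM1 and VCAM1 on the endothelium. In brain and retina, capillary endothelium forms a barrier with tight junctions, the glucose transporter SLC2A1 and the efflux pumps ABCB1 and ABCG2.

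The members' counts summed to 332825 UMIs, the venular set's to 1086640 and the remaining cells' to 9767136. Median depth was 925 UMIs and 552 genes in the members, 1520 UMIs and 824 genes in the venular set and 1171.5 UMIs in the remaining cells, and the members ranged from 500 to 5331 UMIs. Mitochondrial genes took a median of 10.8% of a member's UMIs, 13.7% in the venular set and 11.9% in the remaining cells. No barcode was shared between the cell library and either nuclei library, whose barcodes are shorter, while the nuclei libraries shared 51. Levels are given as CPM, the summed UMIs of a gene scaled to the same total of UMIs in every set (counts per 1e+06 UMIs), and differences as the log2 ratio of CPM. Every interval given is at the 95% level and reflects counting error, not variation between animals. With 1 library per group there was no replicate, so no test was made, no p-value is given and no difference between the muscles has a replicate check.

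The genes that chose the members are described without reading anything from them. RAMP3, a co-receptor of the adrenomedullin receptor, was at 1229 CPM in the members, with at least 1 UMI in 189 of them, and at 133 CPM in the venular set. CD300LG, a receptor-like glycoprotein of capillary and high endothelial venule surfaces, was at 1016 and 75.5 CPM, with 169 members carrying it. TM4SF18, a tetraspan membrane protein, was at 793 and 131 CPM (157 members), and C1QTNF9, a secreted adiponectin-like protein, at 442 and 28.5 CPM (93 members). APLNR, the apelin receptor, was at 246 and 12.9 CPM (49 members). GPIHBP1 was at 240 CPM in 56 members and had no UMI in the venular set. Of the genes that counted against membership, ACKR1, a chemokine-binding receptor of venules, was at 189 CPM in the members and 2977 CPM in the venular set, and PLVAP, which forms the diaphragms of fenestrae, at 24.04 and 1421 CPM.

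Most members passed the rule narrowly. The summed count of the 6 genes was exactly 3 UMIs in 93 members, 4 in 74, 5 in 42 and 6 or more in 69, and 49 members held at least 1 UMI of the venular genes. Just inside the threshold, the members with 3 UMIs had 5939 CPM of CXCL12 and 7446 CPM of RNASE1. Just outside it, the 178 kept barcodes with 2 such UMIs and fewer venular ones had 4406 CPM of CXCL12 and 5289 CPM of RNASE1. A gene could also be read in barcodes chosen by the other 5. Chosen this way, APLNR was at 186 CPM in 261 barcodes, against 6.75 CPM in all kept barcodes that the other 5 genes did not choose. GPIHBP1 was likewise at 163 CPM in 259 barcodes, against 8.17 CPM, and CD300LG at 648 CPM in 184 barcodes, against 50.02 CPM. The log2 ratios of the 6 genes so held out lay between 3.30 for TM4SF18 and 4.78 for APLNR.

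The label of endothelium held against its markers. Of 20 genes found in all endothelium, all were detected in the members, 275 of 278 members carried at least 3 of their UMIs and none carried 0. Their summed level was 14707 CPM in the members, 10850 CPM in the venular set and 4226 CPM in the remaining cells. PECAM1 and CDH5, adhesion molecules of endothelial junctions, were at 1160 and 754 CPM in the members. VWF, the clotting protein stored in endothelial granules, was at 1037 CPM, and EMCN, a sialomucin of capillaries and veins, at 1704 CPM. Against the venular set, PECAM1 (log2 ratio -0.03, -0.20 to 0.13), VWF (0.15, -0.03 to 0.32), RAMP2 (-0.01, -0.12 to 0.11), CLEC14A (0.13, -0.13 to 0.38) and ERG (0.21, -0.18 to 0.58) had intervals that included no difference. Among the same 20 markers, ICAM2 (1.81), the VEGF receptors FLT1 (1.76) and KDR (1.28), CDH5 (1.26) and CLDN5 (1.04) were at least 2-fold higher in the members, and the BMP co-receptor ENG lay just under 2-fold (916 and 458 CPM).

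**Figure D1:**
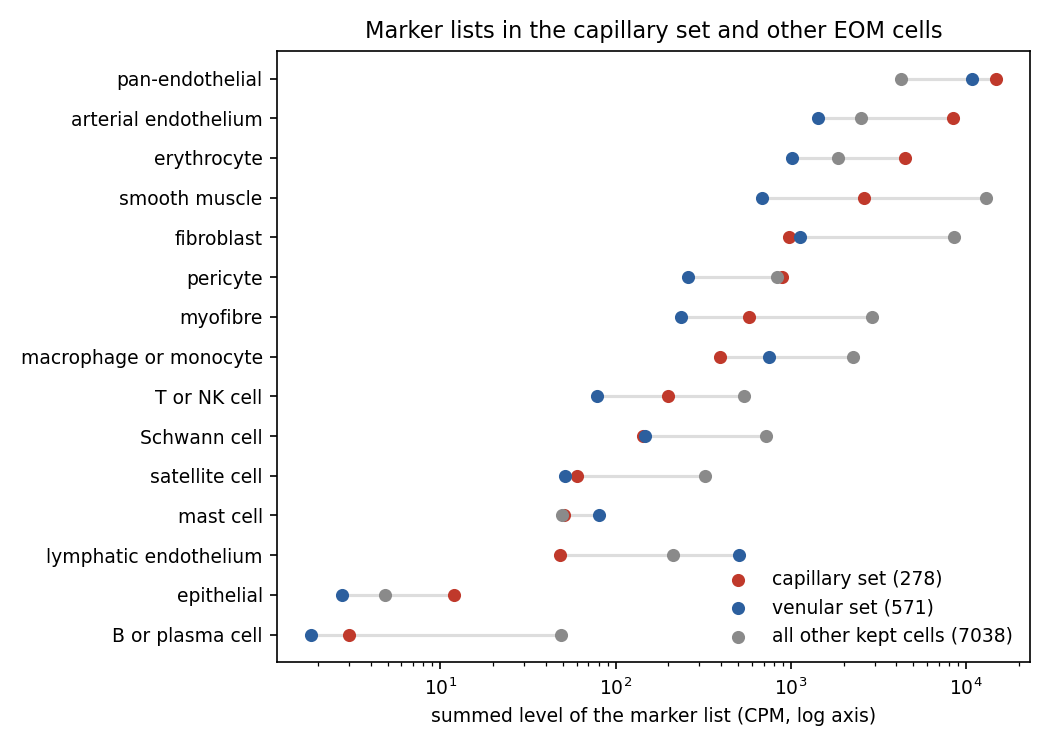
Summed level of each marker list, in CPM on a log axis, in the capillary set (red, 278 barcodes), the venular set (blue, 571) and all other kept cells (grey, 7038). Platelet and adipocyte markers, which had no UMI in the capillary set, are not drawn; the pan-endothelial and arterial lists were higher in the capillary set than in both others, and the lymphatic list lower.

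RNA of other cell types was present in part of the members. Smooth muscle markers summed to 2602 CPM in the members, 684 CPM in the venular set and 12947 CPM in the remaining cells, and pericyte markers to 895, 258 and 829 CPM. ACTA2, the smooth muscle actin, accounted for 521 of the members' UMIs, and 290 of these came from 5 members. Fibroblast markers were at 976 CPM in the members and 1130 CPM in the venular set, and macrophage or monocyte markers at 397 and 747 CPM, with CD163 and FCN1 at 0 in the members. Lymphatic markers were at 48.1 CPM in the members and 503 CPM in the venular set, and CCL21 had no UMI in the members. In all, 65 members (23.4%) and 174 venular barcodes (30.5%) carried 3 or more UMIs of a list for non-endothelial cells, and 49 venular barcodes had more macrophage than pan-endothelial UMIs, against 1 member. HBB, a haemoglobin chain, had 1490 UMIs in the members, of which 1470 lay in a single barcode. Several results are therefore also given without the barcodes that carried other cell types' markers.

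Against the remaining cells, transporters, interferon-induced genes and endothelial surface proteins were higher in the capillary set. Of the remaining cells, 2263 (32.2%) carried at least 3 pan-endothelial UMIs. In neither endothelial set were 1068 barcodes with more of these UMIs than of other main cell types' markers. The ratios below therefore do not separate capillary genes from those of endothelium in general. Of 12504 genes with at least 20 UMIs over both sums, 1763 were at least 2-fold higher in the members (14.1%) and 2260 at least 2-fold lower (18.1%), 32.2% in either direction, and the median log2 ratio was -0.05. Since genes were chosen here by the size of their ratio, the values below describe this library. SLC39A8, an importer of zinc and manganese, was at 168 CPM in the members and 12.7 CPM in the remaining cells, a log2 ratio of 3.73 (3.25 to 4.19). BTNL9, a butyrophilin-like protein of capillary endothelium, was at 102 and 8.29 CPM (3.62, with an upper limit of 4.22). SLCO1B1, an organic anion transporter best known from liver, was at 544 and 52.7 CPM (3.37, 3.11 to 3.61). It was seen in 116 members with at most 4 UMIs in any, so its level did not rest on a few barcodes. CD320, the receptor that takes up transcobalamin-bound vitamin B12, was at 252 and 23.96 CPM (3.40).

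IFI27, an interferon-induced mitochondrial protein, was among the most abundant of these, at 7280 CPM in the members and 733 CPM in the remaining cells (3.31, 3.25 to 3.38). SLC1A1, a glutamate transporter, was at 150 and 16.3 CPM (3.21). The adhesion receptor ADGRG1 (3.29), CCDC85A (3.28), the phosphodiesterase PDE2A (3.18), TMEM88 (3.17), the retinol-binding protein RBP7 (3.11) and the Fc receptor FCGR1A (3.11) completed the 12 largest ratios at 100 CPM or more. At the other end stood genes of macrophages and fibroblasts. AIF1 had 1 UMI in the members and 2779 in the remaining cells (log2 -6.57, -11.87 to -4.09), and the chemokines CCL3 (-4.63) and CXCL8 (-3.98) and the fibroblast genes MXRA8 (-4.15), EFEMP1 (-4.15) and CCDC80 (-4.09) followed.

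CXCL12, the chemokine that binds CXCR4, set the members apart from venular cells at a high level of expression. It was at 6298 CPM in the members and 328 CPM in the venular set, a log2 ratio of 4.26 (4.10 to 4.43), and was spread over 254 of 278 members with at most 37 UMIs in any. With every barcode thinned to 500 UMIs, 84.9% of members (80.1 to 88.9) and 11.6% of venular barcodes (9.05 to 14.5) carried it. The share was 4.96% in macrophage-marker cells, whose median depth was 1588 UMIs, and 39.4% in fibroblast-marker cells, with a median of 1056 UMIs. Unthinned, the shares were 91.4% of members, 24.9% of venular barcodes, 12.2% of macrophage-marker cells and 57.5% of fibroblast-marker cells.

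Across the transcriptome, 7817 genes had at least 20 UMIs over the capillary and venular sums. Of these, 852 were at least 2-fold higher in the capillary set (10.9%) and 951 at least 2-fold lower (12.2%), 23.1% in either direction, with a median log2 ratio of 0.02. APOA1, the main protein of high-density lipoprotein, had the largest ratio, 499 CPM in the members against 3.68 CPM in the venular set (7.08, 5.70 to 8.97). Its 166 UMIs lay in 46 members, and 5 of them held 35.5%. CCDC85A (135 and 2.76 CPM, 5.61, 3.97 to 7.94) and the glycosyltransferase GCNT1 (108 and 2.76 CPM, 5.29, 3.63 to 7.64) each had 3 UMIs in the venular set. RGCC, a cell cycle regulator known from capillary endothelium, was at 355 and 23.0 CPM (3.95, 3.31 to 4.63). NEBL, which encodes the actin-binding protein nebulette, was at 619 and 55.2 CPM (3.49). MGLL, a lipase of monoacylglycerols and endocannabinoids, was at 454 and 47.9 CPM (3.24). BTNL9 (4.21), the unconventional myosin MYO10 (3.26), the secreted protein NDNF (3.24), the alkaline phosphatase ALPL (3.17) and SLC2A1 (3.09) completed the 12. Each of the 12 stayed at least 2-fold higher without the barcodes that carried other cell types' markers.

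The 12 smallest ratios held genes known from veins or lymphatic vessels, from monocytes and from other cells. CPE, a carboxypeptidase, was at 45.1 CPM in the members and 1901 CPM in the venular set (-5.40, -6.24 to -4.67). IL1R1, the interleukin-1 receptor, had 2 UMIs in the members and 252 in the venular set (-5.27, -8.32 to -3.40). MMRN1, a multimerin of lymphatic and some venous endothelium, had 1 UMI in the members and 428 in the venular set (-7.03, -12.34 to -4.55), while PROX1, which defines lymphatic endothelium, had 3 and 81. EFEMP1 (-4.63) and the chemokine CXCL10 (-4.47, -7.53 to -2.59, from 2 UMIs in the members) were lower as well, and both, with CPE, IL1R1 and MMRN1, stayed at least 2-fold lower without barcodes carrying other cell types' markers. This was not so, or could not be told, for the other 7 of the 12. FCGR3A stood at -5.97 (-11.28 to -3.48) with all barcodes and at -0.58 (-6.20 to 2.76) without those. CFP moved to -0.90 (-6.46 to 2.26) from -5.38 (-10.69 to -2.88), PTX3 to the same value from -4.71 (-7.77 to -2.84) and CCL3 to -0.31 (-2.81 to 1.64) from -4.44. CD68, at -5.09 (-10.40 to -2.58) with all barcodes, then had 1 UMI in either set, and AIF1 and IL1B had 0 UMIs in the members and 3 and 6 in the venular set, too few for a ratio.

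**Figure D2:**
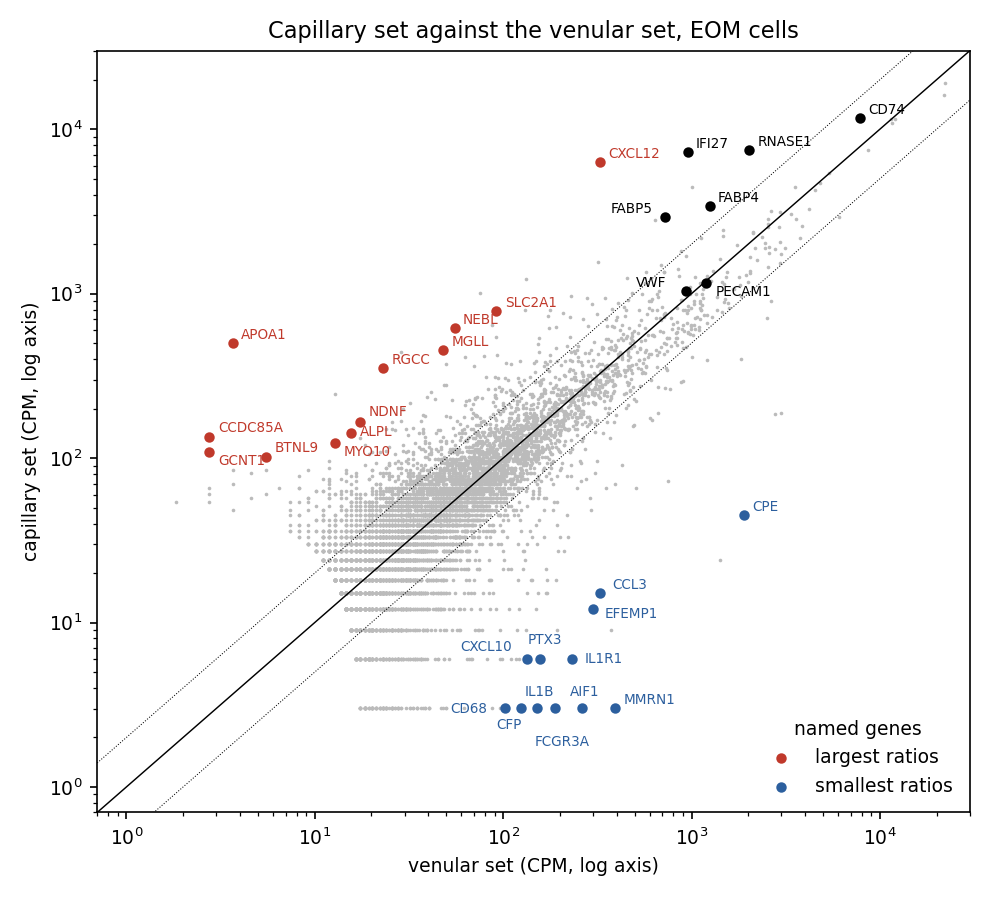
Level of each gene in the capillary set (vertical axis) against the venular set (horizontal axis), in CPM on log axes, for genes with at least 20 UMIs over both and at least 1 in each. The solid line marks equal levels and the dotted lines 2-fold; red and blue points are the 12 largest and 12 smallest ratios, black points other genes described in the text, with CXCL12 at 6298 against 328 CPM.

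**Figure D3:**
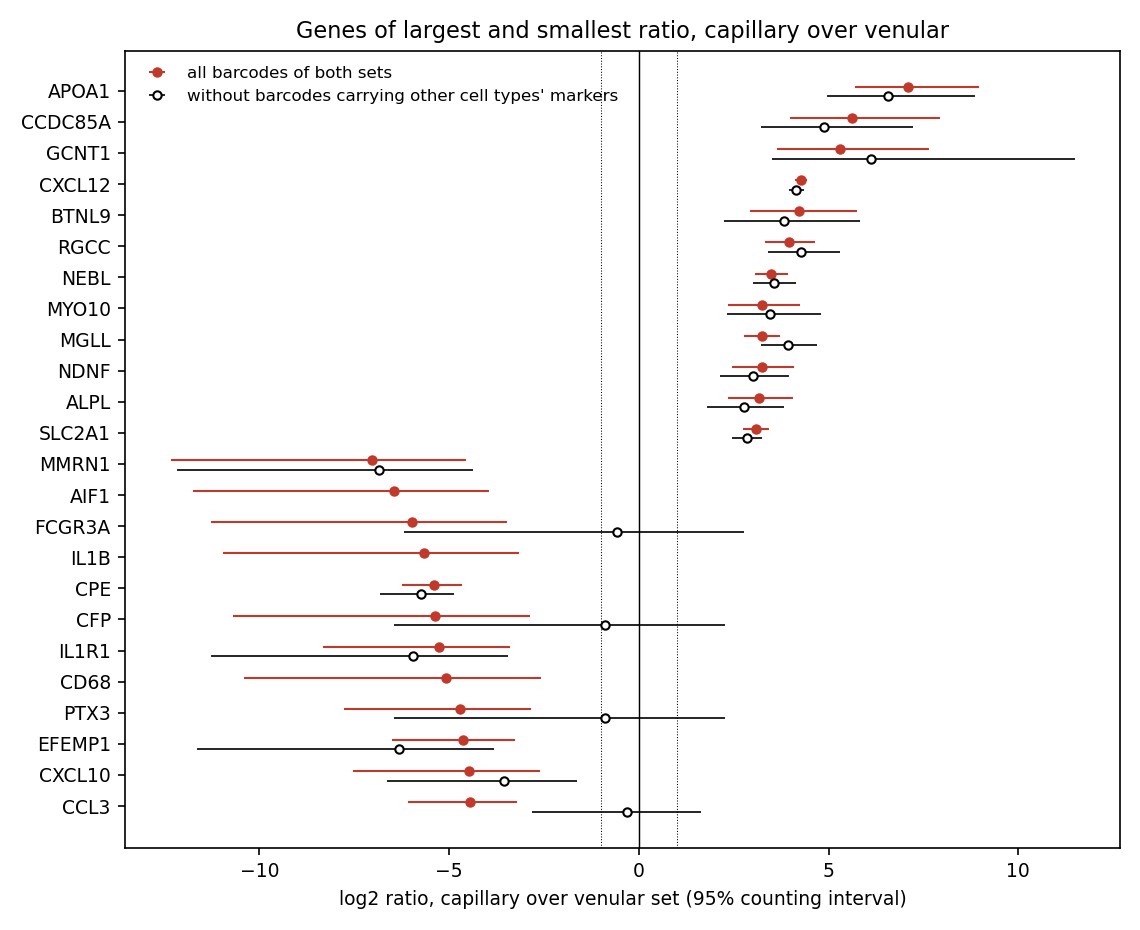
Log2 ratio of the capillary over the venular set with 95% counting intervals for the 12 largest and 12 smallest ratios, over all barcodes (red) and without barcodes carrying other cell types' markers (open). The upper 12 stay above 2, while FCGR3A, CFP, PTX3 and CCL3 move to between -0.90 and -0.31; AIF1, IL1B and CD68 have no open point, having too few UMIs left.

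Genes known from capillary endothelium elsewhere, other than the 6 of the rule, were for the most part higher. Of 17 measured against the venular set, 11 were at least 2-fold higher and 1 lower, with a median log2 ratio of 1.45, where 10.9% and 12.2% of all genes were higher and lower. Against the remaining cells 9 of 17 were higher and 1 lower (median 2.01), beside 14.1% and 18.1% of all genes. The same shares of all genes apply to every list that follows in these comparisons. CA4, a carbonic anhydrase of capillary walls, had 28 UMIs in 22 members and 4 in the venular set (log2 4.51, with an upper limit of 6.49). The lectin FCN3 was at 415 CPM in the members and 62.6 CPM in the venular set (2.73), the collagen receptor subunit ITGA1 at 646 and 87.4 CPM (2.89), and ADGRF5 at 790 and 178 CPM (2.15). The transcription factor TCF15, which works with MEOX2 in heart and muscle endothelium of mice, was at 120 and 18.4 CPM (2.71). MEOX2 itself was at 93.1 and 179 CPM (-0.95), and its relative MEOX1 was the gene that was lower, with 3 and 63 UMIs (-2.69, -5.00 to -1.07).

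Arterial genes were also higher in the members than in the venular set. Of 17 measured, CXCL12 counted, 10 were at least 2-fold higher and none lower (median 1.31). SEMA3G, a secreted semaphorin of arteries, was at 198 CPM in the members and 29.5 CPM in the venular set (2.75). HEY1, a Notch target, had 15 and 8 UMIs (2.61), and the gap junction protein GJA4 27 and 16 UMIs (2.46). EFNB2, the arterial ephrin, was at 234 and 72.7 CPM (1.69). Against the remaining cells, 8 of 19 were higher and 3 lower (median 0.77), beside 14.1% and 18.1% of all genes. The lower 3 were HEY2 (3 UMIs in the members, -1.91, -4.20 to -0.35) and the elastic fibre genes FBLN5 and LTBP4. Of 10 Notch genes, 5 were higher and 2 lower in the members than in the venular set. DLL4, JAG1, JAG2, HEY1 and HEY2 are also on the arterial list, so the lists are not separate results. NOTCH4 (2.51), DLL4 (2.12, from 12 and 9 UMIs), JAG2 (1.81) and JAG1 (1.31) were higher. LFNG (-1.48) and the target HES1 (-1.03) were lower. The Notch median of 0.84 changed sign to -0.21 when RAMP3 was left out of the rule.

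Venous genes outside the rule were lower. Against the venular set, none of 10 was higher and 8 were at least 2-fold lower, with a median log2 ratio of -2.35. NR2F2, the transcription factor that sets venous identity, was at 69.1 CPM in the members and 395 CPM in the venular set (-2.51, -3.19 to -1.91). CLU was at 400 and 1823 CPM (-2.19), ADGRG6 had 2 and 120 UMIs (-4.20, -7.26 to -2.32), and TSPAN7 5 and 166 UMIs (-3.35). EPHB4, the venous ephrin receptor, was at 87.1 and 79.1 CPM (0.14, -0.52 to 0.76), and its partner EFNB2 is described above.

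The genes of fatty acid uptake were carried unevenly. FABP4, a fatty acid-binding protein, was at 3398 CPM in the members, 1247 CPM in the venular set and 493 CPM in the remaining cells, log2 ratios of 1.45 against the venular set and 2.78 against the remaining cells. FABP5 was at 2923, 723 and 445 CPM (2.01 and 2.72). CD36, the membrane receptor, was at 953, 665 and 169 CPM, less than 2-fold above the venular set (0.52, 0.32 to 0.71). PPARG, the nuclear receptor that drives fatty acid uptake, had 13 UMIs in each endothelial set (1.71, 0.48 to 2.93). VLDLR, a receptor for very-low-density lipoprotein, had no UMI in the members and 28 in the venular set, a level at least 2.86-fold lower when 0 is taken as 3 UMIs. LPL, the lipase that GPIHBP1 binds, had 7 UMIs in the members and 33 in the venular set (-0.53, -1.95 to 0.67). Of the whole list, 6 of 13 were higher and 1 lower than in the venular set (median 0.77), and 8 of 20 were higher and 3 lower than in the remaining cells (median 0.84).

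Transporters known from the blood-brain barrier were higher in both comparisons. Of 14 measured against the remaining cells, 11 were at least 2-fold higher and none lower (median 2.25), and of 10 measured against the venular set 7 were higher and none lower (median 1.82). SLC2A1 was at 784 CPM in the members, 92.0 CPM in the venular set and 104 CPM in the remaining cells. SLC6A6, the taurine transporter, was at 418, 79.1 and 90.8 CPM, log2 ratios of 2.40 and 2.20 against the venular set and the remaining cells. SLC39A8 (2.56), SLC1A1 (2.65) and SLCO2B1 (2.14) were higher than in the venular set as well. The efflux pump ABCB1 was at 805, 378 and 145 CPM (1.09 and 2.47), and ABCG2 at 799, 528 and 130 CPM (0.60 and 2.62). MFSD2A, a lipid transporter characteristic of brain capillaries, had 5 UMIs in each endothelial set, and SLC38A5 had none in the members, which allows up to 9.01 CPM when 0 is taken as 3 UMIs.

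Tight junction genes followed the transporters against the remaining cells, where 11 of 12 were higher and none lower (median 1.41). Against the venular set 6 of 12 were higher and none lower (median 0.92). CLDN5, the main endothelial claudin, was at 1169 CPM in the members and 567 CPM in the venular set (1.04, 0.86 to 1.23). F11R (1.16) and the tricellular junction protein LSR (1.37) were higher too, and OCLN, or occludin, had 4 and 26 UMIs (-0.99, -2.97 to 0.53). The structural genes of caveolae, CAV1 (1349 and 718 CPM, 0.91) and CAV2 (1013 and 481 CPM, 1.07), had ratios near 2-fold against the venular set. Of Wnt pathway genes, which induce the barrier in brain, 1 of 11 was higher (SOX17, 1.15) and 1 lower (TSPAN12, -1.04) than in the venular set, with a median of 0.23 that changed sign to -0.35 when TM4SF18 was left out of the rule.

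Most leukocyte adhesion and chemokine genes were lower in the members than in the venular set. The venular set was itself chosen by the adhesion genes SELE, SELP and VCAM1, with ACKR1 and PLVAP, so this list is not independent of the choice. It also held 49 barcodes with more macrophage than pan-endothelial UMIs, against 1 member. Of 20 measured, 4 were higher in the members and 13 lower than in the venular set, with a median log2 ratio of -1.54. ICAM1, which binds leukocyte integrins, was at 264 CPM in the members and 768 CPM in the venular set (-1.54, -1.87 to -1.22), and NFKBIA, an inhibitor and target of NF-kB, at 709 and 2529 CPM (-1.83, -2.03 to -1.64). CCL2 (-3.16), IL6 (-2.59), CXCL8 (-2.61) and CXCL11 (1 UMI in the members, -3.61, -8.95 to -1.05) were lower. CXCL8 moved to -1.02 without the barcodes carrying other cell types' markers. The 4 that were higher were CXCL12 (described above), ICAM2 (222 and 63.5 CPM, 1.81), the membrane-bound chemokine CX3CL1 (297 and 107 CPM, 1.48) and CD34 (1487 and 693 CPM, 1.10).

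Interferon-response genes were higher in the members. Of 14 measured against the venular set, 6 were higher and 2 lower (median 0.64), and of 15 against the remaining cells 9 were higher and none lower (median 1.20). IFI27 was at 7280 CPM in the members and 955 CPM in the venular set (2.93, 2.82 to 3.04). IFIT1, which binds viral RNA, was at 361 and 69.9 CPM (2.37), IFIT3 at 763 and 209 CPM (1.87), and ISG15 at 93.1 and 24.9 CPM (1.91). IRF1, a transcription factor of this pathway, was lower at 78.1 and 168 CPM (-1.11). With thinning to 500 UMIs, 29.1% of members, 7.01% of venular barcodes, 2.92% of macrophage-marker cells and 3.96% of fibroblast-marker cells carried IFIT3, and unthinned 47.1%, 21.7%, 5.25% and 7.55%. In antigen presentation, 7 of 13 genes were higher than in the remaining cells and none lower (median 1.18). CD74, the invariant chain of class II molecules, was at 11619 CPM in the members, 7809 CPM in the venular set and 4367 CPM in the remaining cells.

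RNASE1, a secreted ribonuclease of endothelium, was found in 264 of 278 members and was singled out after its values were seen. It was at 7436 CPM in the members, 2015 CPM in the venular set and 876 CPM in the remaining cells. With thinning, 86.7% of members, 45.7% of venular barcodes and 3.79% of macrophage-marker cells carried it, and unthinned 94.96%, 63.9% and 10.8%.

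Receptors and regulators of vessel growth differed gene by gene. Of all genes, 10.9% were higher and 12.2% lower than in the venular set, and 14.1% and 18.1% than in the remaining cells. Of the VEGF and angiopoietin genes, 11 of 21 were higher and 5 lower than in the remaining cells (median 1.04), and 5 of 13 higher and 2 lower than in the venular set (median 0.69). NRP1, a co-receptor for VEGF, was at 637 CPM in the members and 283 CPM in the venular set (1.17), while its relative NRP2, known from veins and lymphatics, was at 69.1 and 151 CPM (-1.13). ANGPT2, which loosens vessels, had 11 and 6 UMIs (2.58, 1.02 to 4.30). These were too few to count as measured, so ANGPT2 was not among the 13. Among 28 transcription factors, 7 were higher and 4 lower than in the venular set (median 0.21, which changed sign to -0.08 at a minimum of 50 UMIs). TBX3 (3.36), ETS1 (1.51), EPAS1, the hypoxia-inducible factor of endothelium (1346 and 575 CPM, 1.23), and SOX17 (1.15) were higher, and LMO2 (-1.55) lower. In the BMP pathway BMP6 was higher (180 and 72.7 CPM, 1.31), and BMP4 (21.0 and 168 CPM, -3.00), BMP2 (1 UMI in the members, -3.69, -9.02 to -1.13) and ID3 (159 and 497 CPM, -1.64) were lower, in all 2 higher and 4 lower of 17 (median -0.46).

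The remaining lists had smaller medians. Over all genes measured against the venular set, 10.9% were higher and 12.2% lower, and the vasoactive genes were near these shares. Basement membrane and integrin genes were higher in 6 and lower in 2 of 20 against the venular set (median 0.15), with the collagen COL4A1 (108 and 22.1 CPM, 2.29) higher and FN1, or fibronectin (42.1 and 155 CPM, -1.89), lower. Of 16 vasoactive genes, 2 were higher and 2 lower: RAMP1 (84.1 and 5.52 CPM, 3.93) and the peptide ADM (84.1 and 20.2 CPM, 2.05) against the angiotensin-converting enzyme ACE (18.03 and 85.6 CPM, -2.25) and PTGS2 (42.1 and 123 CPM, -1.55). CALCRL, the receptor that RAMP1, RAMP2 and RAMP3 modify, was at 132 and 264 CPM (-0.998), and RAMP2 was at 2539 and 2550 CPM. In coagulation, 2 of 12 were higher and 3 lower; A2M (1244 and 453 CPM, 1.46) and PLAU (2.25) were higher, and TFPI (66.1 and 352 CPM, -2.41) and PROCR (-2.27) lower. F2R, the thrombin receptor, had no UMI in the members and 51 in the venular set, at least 5.21-fold lower with 0 taken as 3 UMIs. Glycolytic genes had a median of -0.31 against the venular set and -0.58 against the remaining cells, and LDHA was at 75.1 and 180 CPM in the members and the venular set (-1.26). Immediate-early genes, which dissociation of tissue can induce, were higher in none and lower in 3 of 19 (median -0.29), with FOS at 3272 CPM in the members and 4219 CPM in the venular set. NR4A1, one of the 3, stood at -1.95 with all barcodes and at -0.23 without those carrying other cell types' markers.

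Genes of water and solute exchange were 2 higher and 2 lower of 10 against the venular set (median 0.27), beside 10.9% and 12.2% of all genes. AQP1 was at 760 CPM in the members, 943 CPM in the venular set and 183 CPM in the remaining cells (-0.31 and 2.05), and the ion cotransporter SLC12A2 was at 96.1 CPM in the members and 30.4 CPM in the venular set (1.66). SLCO2A1, a prostaglandin transporter, had no UMI in the members and 26 in the venular set. Complement regulators were higher in none and lower in 3 of 8 (median -0.45). Among relatives of the rule's genes, C1QTNF1 (126 and 38.7 CPM, 1.71) was higher with RAMP1 and C1QTNF2 (1.15), while TM4SF1, the tetraspan relative of TM4SF18, was at 2211 and 2360 CPM (-0.09, -0.21 to 0.03). Of the other members of the interferon list, BST2 (1.52) and MX1 (1.07) were higher in the members and IRF7 had 3 and 22 UMIs (-1.17, -3.55 to 0.57). Few dividing cells could be described, since 3 of 12 cell cycle genes reached 20 UMIs in this comparison.

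SLC2A1 divided the members. It was carried by 69 of them, with 261 UMIs in all and at most 23 in any, and not detected in 209. After its values had been seen, the members with and without an SLC2A1 UMI were set beside each other, so what follows is a description. Those with SLC2A1 were deeper, with medians of 1485 and 791 UMIs, and 13 of 69 and 52 of 209 carried other cell types' markers. Every member was therefore also thinned to 500 UMIs, which left SLC2A1 in 47 and none in 231.

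Members with SLC2A1 had more RNA of several barrier genes and of some genes of other lists, and less of FABP4, FABP5 and CD36. DKK2, a Wnt modulator counted here among the arterial genes, was at 611 CPM in those with SLC2A1 and 41.5 CPM in those without (log2 3.88, 2.87 to 5.06, and 3.21 with thinning). SLC39A8 was at 379 and 55.4 CPM (2.77), PLAT, the tissue plasminogen activator, at 1712 and 259 CPM (2.73), and ABCG2 at 1566 and 388 CPM (2.01). CLDN5 was at 1902 and 776 CPM (1.29) and ABCB1 at 1205 and 591 CPM (1.03, and 0.82 with thinning). LEF1, the transcription factor through which Wnt signals act, had 14 and 2 UMIs (3.71, 1.58 to 6.89), too few to count as measured. All 5 UMIs of MFSD2A, likewise too few, lay in members with SLC2A1. SLCO1B1 was at 370 and 637 CPM (-0.78), and with thinning it was more than 2-fold lower in members with SLC2A1, from 5 and 88 UMIs (-1.84). SLC6A6 was at 310 and 476 CPM (-0.62, and -0.73 with thinning).

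FABP4 was at 869 CPM in members with SLC2A1 and 4755 CPM in those without (-2.45, -2.76 to -2.16, and -3.74 with thinning), and FABP5 at 611 and 4164 CPM (-2.77, and -3.22 with thinning). The water channel AQP1 was at 129 and 1099 CPM (-3.09, and -2.33 with thinning), CD36 at 404 and 1246 CPM (-1.62) and RGCC at 103 and 489 CPM (-2.24). The cell cycle inhibitor CDKN1C was at 250 and 1353 CPM (-2.44). CA4 had 0 and 28 UMIs and APLNR 0 and 82 UMIs, levels at least 5.01-fold and 14.7-fold lower with 0 taken as 3 UMIs, and MEOX2 had 1 and 30 UMIs (-4.01, -9.36 to -1.42). With thinning, CA4 had 0 and 14 UMIs, too few for a bound, APLNR 0 and 44 UMIs, a log2 ratio of -1.58 with 0 taken as 3 UMIs, and MEOX2 1 and 17 UMIs. APLNR is one of the 6 genes of the rule. Other genes differed less: the pan-endothelial marker VWF was at 1024 and 1043 CPM (-0.03), CXCL12 at 5955 and 6482 CPM (-0.12), RNASE1 at 8570 and 6828 CPM (0.33) and PECAM1 at 904 and 1297 CPM (-0.52).

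By list, 5 of 8 barrier transporters were at least 2-fold higher in members with SLC2A1 and 1 lower, SLC2A1 itself left out (median 1.08). Of capillary genes outside the rule, none of 13 was higher and 10 were lower (median -1.66), and of fatty acid genes none of 8 was higher and 3 lower (median -0.41). Of arterial genes, 3 of 11 were higher and 2 lower (median -0.06). DKK2 and JAG1 (46 and 27 UMIs, 1.67, 0.95 to 2.41) were among the higher. Over all 2924 genes with at least 20 UMIs, 6.63% were higher and 9.23% lower, 15.9% in either direction, with a median of 0.04. Immediate-early genes were higher in 5 and lower in none of 17 (median 0.70), FOS being at 4931 and 2382 CPM (1.05), and ACTA2 was at 895 and 1925 CPM (-1.10). Their part in the difference was not tested. Without members carrying other cell types' markers, 9 of 16 immediate-early genes were higher (median 1.05) and 12 of 13 capillary genes lower (median -1.84). Barrier transporters were then 4 higher and 1 lower of 8 (median 1.23), and fatty acid genes 3 lower of 6 (median -1.24).

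**Figure D4:**
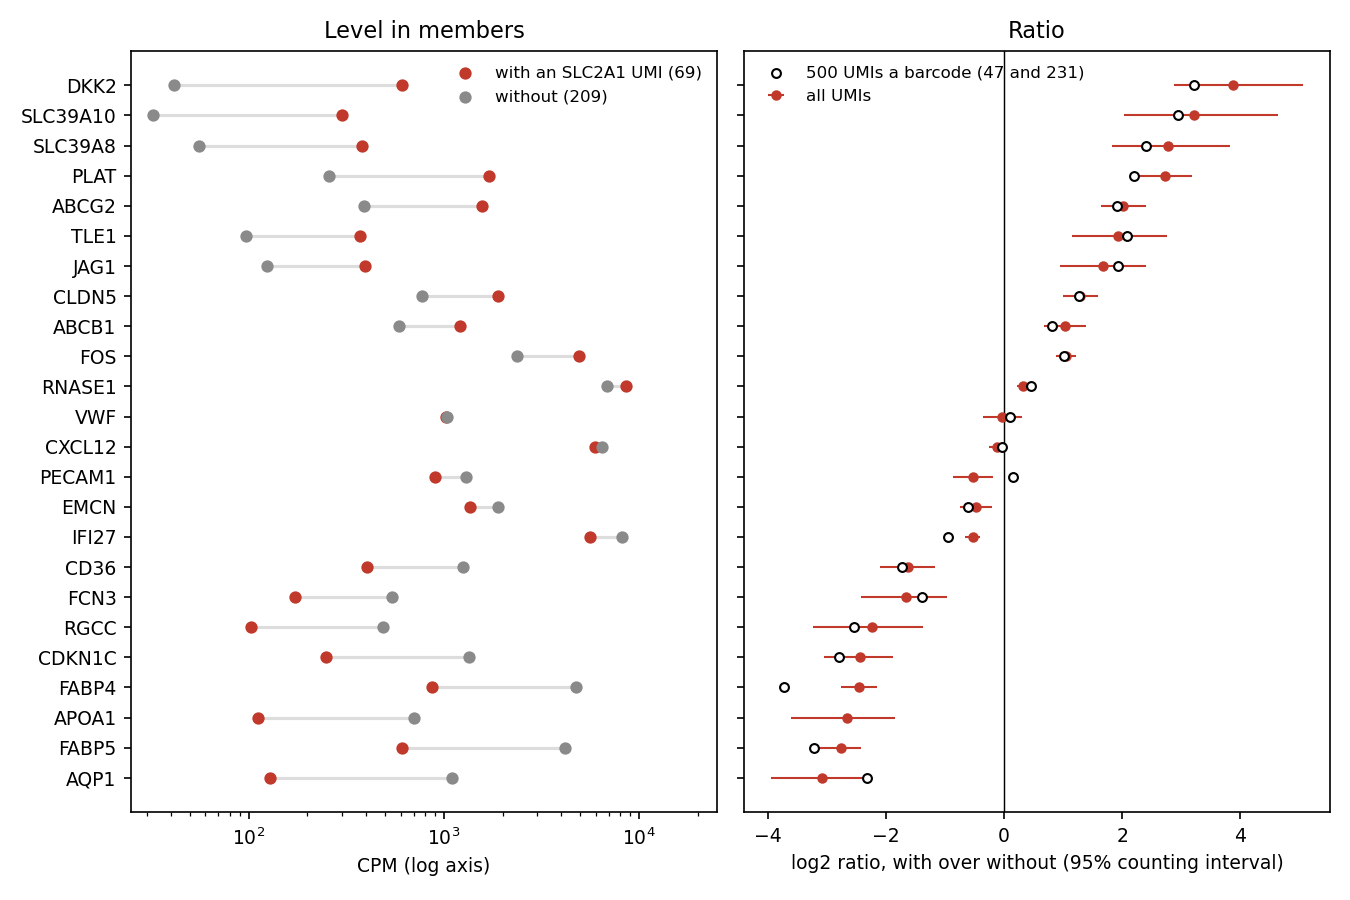
Level in CPM on a log axis (left) of 24 genes in the 69 members with an SLC2A1 UMI (red) and the 209 without (grey), and their log2 ratio (right) with 95% counting intervals over all UMIs (red) and with 500 UMIs per barcode (open, 47 and 231 members). Genes from DKK2 to FOS lie at a log2 ratio above 1, those from CD36 to AQP1 below -1; the 6 between them lie within 1 of 0, and APOA1, with 0 thinned UMIs in members with SLC2A1, has no open point.

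The same rule was applied to the nuclei libraries, with the 4 of its 6 genes that the nuclei tables name (C1QTNF9 and GPIHBP1 are not among their symbols). It chose 162 of 16473 EOM nuclei, with a median of 3897.5 UMIs, and 306 of 12391 QFM nuclei, with a median of 4560.5. The venular rule chose 294 and 291 nuclei. Of the 12 genes of largest capillary over venular ratio in cells, 9 were measured in EOM nuclei, of which 7 were at least 2-fold higher by the capillary rule and 2 within 2-fold. All 8 measured in QFM nuclei were higher. Of the 12 genes of smallest ratio, 4 were measured in the nuclei of each muscle, and 2 were at least 2-fold lower and 2 within 2-fold in each. Among all genes, 1.95% in EOM nuclei were at least 2-fold higher by the capillary rule and 3.29% lower, 5.25% in either direction. In QFM nuclei 5.32% were higher and 6.6% lower, 11.9% in either direction.

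RGCC was at 88.0 CPM in capillary-rule nuclei and 4.89 CPM in venular-rule nuclei of EOM (log2 4.17), and at 395 and 6.80 CPM in QFM (5.86). CXCL12 was at 400 and 70.2 CPM in EOM (2.51) and 631 and 58.9 CPM in QFM (3.42). IFI27 was at 719 and 155 CPM in EOM (2.21) and 3229 and 192 CPM in QFM (4.07). FCN3 (1.85 in EOM, 4.03 in QFM), GCNT1 (1.72, and 4.13 from 3 venular-rule UMIs, 2.50 to 6.45) and NDNF (1.58, 2.78) were likewise higher by the capillary rule in both muscles. CPE (-1.79 in EOM, -3.64 in QFM) and IL1R1 (-2.11, -3.15) were lower in both, while EFEMP1 (-0.60, -0.80) and CD68 (0.18, 0.25) were within 2-fold in both. For each of these genes the EOM ratio was the closer to 0. Capillary genes outside the rule had a median of 0.48 in EOM, with 5 of 15 higher and none lower. In QFM it was 0.83, with 7 higher and 2 lower of 16, and in whole cells it had been 1.45. At a minimum of 5 rule UMIs the EOM median was 0.11, with 4 higher and 2 lower of 13, and the QFM median 0.93. Arterial genes had medians of 0.18 in EOM and 1.30 in QFM and venous genes of -0.71 and -1.92, with 3 of 14 arterial genes higher and 5 of 14 venous genes lower in EOM. Among them SEMA3G stood at 1.25 in EOM and 3.80 in QFM and NR2F2 at -0.76 and -2.41. SLC2A1 was at 71.2 and 52.04 CPM in EOM nuclei (0.45), where in whole cells it had stood at 3.09, and had 2 UMIs in the capillary-rule nuclei of QFM. The barrier list as a whole had a median of -0.05 in EOM nuclei, with none of 16 past 2-fold, where it had been 1.82 in cells.

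**Figure D5:**
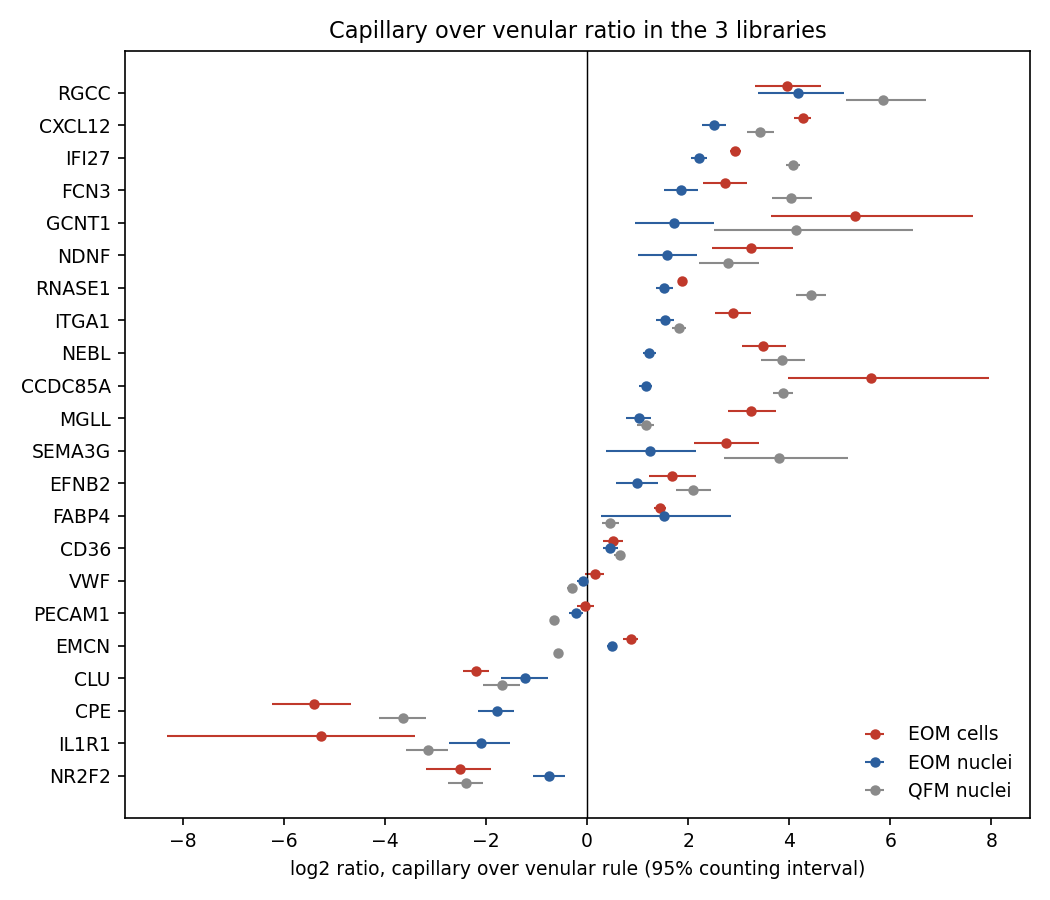
Log2 ratio of barcodes chosen by the capillary rule over those chosen by the venular rule, with 95% counting intervals, for 22 genes in EOM cells (red), EOM nuclei (blue) and QFM nuclei (grey). RGCC, CXCL12 and IFI27 lie above 2 and CPE, IL1R1 and CLU below -1 in all 3 libraries, while EMCN lies above 0 in both EOM libraries and at -0.58 in QFM nuclei.

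Between the muscles, capillary-rule nuclei of EOM held more RNA of several barrier transporters than those of QFM and less of many capillary genes, FABP4 among them. Of 11294 genes measured, 1416 were at least 2-fold higher in EOM (12.5%) and 1435 lower (12.7%), 25.2% in either direction, and the median log2 ratio was -0.01. SLC2A1 was at 71.2 CPM in nuclei of EOM against 0.933 CPM in those of QFM, from 106 and 2 UMIs (log2 6.25, 4.37 to 9.32). SLC6A6 was at 229 and 15.4 CPM (3.90, 3.38 to 4.46) and SLC7A5, a transporter of large neutral amino acids, at 66.5 and 7.93 CPM (3.07). MFSD2A had 21 UMIs in EOM and 0 in QFM, at least 10.1-fold higher in EOM with 0 taken as 3 UMIs. Of the list, 7 of 16 were higher and 1 lower (median 0.95). FABP4 was at 10.1 CPM in nuclei of EOM against 322 CPM in those of QFM (-4.999, -5.84 to -4.27), and RGCC at 88.0 and 395 CPM (-2.17). Of capillary genes outside the rule, none of 16 was higher and 10 were lower (median -1.41). All 10 measured immediate-early genes were lower in EOM, as FOS was with 4 and 95 UMIs (-4.04), with a list median of -2.58. Without nuclei carrying other cell types' markers, myofibre markers not counted, 6 of 8 were lower and 2 within 2-fold (median -1.30).

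Myofibre RNA stood at the head of this comparison. The largest ratios belonged to the extraocular myosins MYH15 (1884 and 0.467 CPM, 11.98, 9.50 to 17.28) and MYH13 (5231 and 4.20 CPM, 10.28), to MYH4 (9.75, 7.26 to 15.05) and to XKR4 (9.71, 7.85 to 12.76), GRIA3 (8.77, 6.91 to 11.82) and RIT2 (8.72, 6.23 to 14.03). All of these but MYH13 had 1 or 2 UMIs in QFM. The smallest belonged to PFKFB1 (0 and 478 UMIs, at least 111-fold lower) and the sarcomere genes MYOM2 (-6.05), MYL3 (-5.46), ACTA1 (-4.71) and MYL2 (-4.44), with FABP4 among them. MYH13 was at 7864 CPM in the remaining EOM nuclei and NEB, a sarcomere protein, at 5787 CPM, beside 5231 and 4056 CPM in the capillary-rule nuclei. The filter for other cell types' markers in nuclei did not count myofibre markers, so it did not take out myofibre RNA. Without nuclei carrying other cell types' markers, 667 genes were higher and 695 lower, among the genes still measured. The median of the barrier list was then 0.64, that of the capillary list -0.99, and FABP4 stood at -5.80. Of fatty acid genes, 1 was higher, 4 were lower and 12 were within 2-fold of 17 with all nuclei (median -0.46); without those nuclei 2 were higher and 3 lower of 13, and the median changed sign to 0.26. The part of myofibre RNA in the other ratios was not tested, and with 1 library per muscle a difference between muscles and one between animals or preparations cannot be told apart.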

How the data were processed

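Per the labels, the samples were whole cells of EOM and nuclei of EOM and of QFM, mRNA was isolated with poly-T magnetic beads, and paired reads were taken on a NovaSeq. The authors deposited raw UMI counts per gene and barcode, not normalized. Per the submitters' processing notes, Cell Ranger 7.2.0 and Seurat 5.2.1 were used, without their roles. Genome build and intron counting: not given in the sources used here. Every deposited barcode held at least 500 UMIs. Total depth was 12248405 UMIs for EOM cells, 61618999 for EOM nuclei and 72590186 for QFM nuclei. QFM counts come from a nuclei sample by its title, while its deposited tables are named as cells; it was taken as nuclei.

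Barcodes with at most 20% mitochondrial UMIs (13 genes) were kept in cells, and at most 10% in nuclei. Counts were summed per set and compared as the log2 ratio of CPM with a conditional exact binomial interval (95%), Poisson limits for sums and Clopper-Pearson limits for shares, in Python 3.11.15 with numpy 2.4.6 and scipy 1.17.1. A gene was measured with at least 20 UMIs over both sums, and counted as higher or lower at 2-fold; a 0 was taken as 3 UMIs. The intervals were checked on counts simulated with Poisson error, which they assume. This check could not cover UMIs spread unevenly over barcodes. Doublets were called with Scrublet in scanpy 1.11.5 (194 of the kept cells, 13 of them members), kept in the main values and left out in an alternative. Shares of barcodes were computed after thinning each barcode to 500 UMIs; no kept barcode was shallower. The cell library has 33368 features, and 17743 of them had a symbol, and only those can be named.

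Members, gene lists and marker lists were chosen with earlier results of these data known. Genes were named by rule: the 12 largest and 6 smallest ratios against the remaining cells, the 12 largest and 12 smallest against the venular set, with at least 100 CPM (200 CPM for the 6) in the higher set and without mitochondrial, ribosomal and rule genes; in each list the 2 most abundant and the 2 furthest in each comparison; and the 6 furthest each way between muscles. Other named genes were chosen after their values were seen, as were the split by SLC2A1 and its thinning. Alternatives varied the mitochondrial limit, the rule, doublets, the count minimum and other cell types' markers. Sequences and coordinates are not reported, since no genome was used here.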

Additional observations from a re-analysis of the deposited data

Results flagged for a closer look

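The 6 genes that follow stood on opposite sides of 0 in the nuclei of the muscles when capillary-rule nuclei were set against venular-rule nuclei, with counting intervals that excluded 0 in each. Only genes already chosen for description were searched, so 6 is not a count over all measured genes. For EMCN the log2 ratio was 0.49 in EOM and -0.58 in QFM, for the BMP receptor BMPR2 0.14 in EOM and -0.28 in QFM, and for the integrin subunit ITGA6 0.20 in EOM and -0.31 in QFM. For the chaperone HSP90AA1 it was -0.38 in EOM and 0.34 in QFM, and for the myofibre genes NEB and MYBPC1 -0.11 and -0.13 in EOM and 0.19 and 0.12 in QFM. These differences between muscles were not tested.

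In the cell library, 81 barcodes passed the capillary rule but held more than 20% mitochondrial UMIs, and no comparison used them. Their pan-endothelial level was 11801 CPM, with CXCL12 at 4320 CPM, FABP4 at 5143 CPM and RNASE1 at 4699 CPM. The other 1582 barcodes over the limit had 2466 CPM of the pan-endothelial genes, 464 CPM of CXCL12 and 800 CPM of FABP4.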

How the results depend on the processing

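No paired analysis was possible because there was 1 library per group and the labels give no replicate numbers. Alternatives numbered 18 against the remaining cells, 20 against the venular set, 4 for the split and 7 for the nuclei. Only the genes of largest and smallest ratio were followed by name. Of their values, 862 stayed within the main counting interval and 91 moved outside it. Genes with too few UMIs under an alternative were not counted there. Of list medians, 1180 stayed close and 31 moved. Of ratios and medians past 2-fold, 0 changed direction. For the genes, chosen for ratios far from 0, a change of direction was unlikely from the start. Some lists with smaller medians that changed sign are given beside their values, but not all. In the split by SLC2A1, for example, the median of arterial genes was -0.06 and became 0.30 with thinning. The cause of the moves was not tested except where fewer genes or barcodes entered by construction. The set was 4.996% of kept barcodes at a limit of 10% mitochondrial UMIs, 6.23% at 2 rule UMIs, 1.52% at 5 and 1.97% with thinning, in place of 3.80%. With a minimum of 1 UMI, 2710 genes were higher against the remaining cells. Against the venular set, higher and lower genes numbered 264 and 354 at the 10% limit, 360 and 414 at a minimum of 50 UMIs, 2612 and 1495 at a minimum of 1, and 440 and 442 with thinning, an alternative added after seeing the data. In the split by SLC2A1, thinning, added likewise, gave 88 and 165. Between muscles, 858 genes were higher at a minimum of 50 UMIs, 3142 higher and 2246 lower at a minimum of 1, and 667 and 695 without nuclei carrying other cell types' markers. That last filter did not count myofibre markers. The number of genes compared changed with these settings too, so the counts cannot be read as shares of genes or as a weaker or stronger difference.

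With a median of 925 UMIs a member, most genes had no UMI in most members, so a 0 in 1 barcode says little about that cell. At 332825 UMIs in all, 3 UMIs amount to 9.01 CPM, the lower limit used for the members. The number of animals is not given, so no interval here covers variation between animals.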

Other observations

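In EOM nuclei chosen by the capillary rule, 37 carried an SLC2A1 UMI and 125 did not, with medians of 7788 and 3545 UMIs. Nuclei with SLC2A1 had less RNA of RGCC (log2 ratio -2.90), CDKN1C (-4.24), CD36 (-1.69) and FCN3 (-2.07) than those without, but also less of PECAM1 (-1.38), VWF (-1.25), EMCN (-1.25) and CXCL12 (-1.31), which had been within 2-fold in the split of whole cells. DKK2 (-0.09), SLC39A8 (-0.06) and PLAT (-0.47), all at least 2-fold higher in whole cells with SLC2A1, were within 2-fold in nuclei. So was LEF1 (0.16), which had too few UMIs to count as measured in the split of whole cells. SLC7A5 (1.34) and ACTA2 (1.68) were higher in nuclei with SLC2A1. These genes were chosen after their values were seen.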
